A study of Mus musculus with 4 samples.

Results

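A set of 9 genes that carry interferon signals into a cell was followed across mouse myeloma cells and normal plasma cells: the receptor chains Ifngr1, Ifngr2, Ifnar1 and Ifnar2, the kinases Jak1 and Jak2, the transcription factors Stat2 and Irf1, and the inhibitor Socs1. They were listed by name, with no cutoff on a measured value but with earlier results of these data known. They are 9 of the 24421 gene columns in each of the 4 single-cell tables. Each gene was read as UMIs (counted transcript molecules) per library and as the share of cells with at least 1 UMI. The cells used were myeloma cells in which Jchain, the chain that joins secreted antibody polymers, made up less than 5% of a cell's UMIs, and wild-type cells in which it made up at least 5%.

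Interferon gamma binds a receptor built from the Ifngr1 and Ifngr2 chains, which signals through the kinases Jak1 and Jak2, while type I interferons bind Ifnar1 and Ifnar2, which signal through Jak1 and Tyk2. The kinases activate STAT factors, which bind GAS elements in the promoters of targets such as Irf1 or, in a complex that holds Stat2 and Irf9, ISRE elements. Socs1 is itself induced by interferon and inhibits the kinases, and in the B lineage these routes set antigen presentation and antiviral genes.

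All cells had been sorted as CD138+ B220-, the surface profile of plasma cells, and all libraries carry the C57/BL6 strain label. The wild-type group is 1 library of bone marrow from an age-matched control animal or animals. The VQ group carries V{kappa}*MYC, a MYC transgene that somatic hypermutation switches on, the conditional mutant allele Nras LSL Q61R/+, and IgG1-Cre, a recombinase expressed from the IgG1 locus of switching B cells. Its cells, named VQ-D2, are donor-derived multiple myeloma cells taken from recipients, with 2 libraries from bone marrow and 1 from lymph node. No treatment or age in numbers is given in the sources used here, and neither is whether the marrow pair and the lymph node came from separate animals. Each p-value therefore rests only on the spread between the 2 marrow libraries, which may be technical. In the reported fit that spread was pooled over all tested genes, so a gene's p-value does not reflect its own spread in the pair.

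The rule kept 687 of 781 cells: 106 of 163 in wild type, 226 of 245 and 170 of 188 in VQ marrow replicates 1 and 2, and 185 of 185 in the lymph node. Between 4% and 6% Jchain lay 10 cells, and no barcode occurred in more than 1 library. The kept cells held 204002 UMIs in wild type, 1045005 and 444437 in VQ marrow and 803752 in the lymph node, with median depths of 1998.5 to 4700 UMIs per cell. Of 12 plasma cell markers, 11 or 12 had a UMI in each library, and Sdc1, which encodes CD138, was found in 67.0% to 77.9% of cells. Other plasma cell markers differed between libraries: Mzb1 was found in 99.1% of wild-type cells, 7.52% and 8.82% of the marrow cells and 68.1% of lymph node cells. Prdm1 and Tnfrsf17 were found in 46.2% and 45.3% of wild-type cells and in 10.6% to 24.9% of cells in the VQ libraries. The 5 erythroid markers were at 0 in every library and the 6 B cell precursor markers at 0 in the 3 VQ libraries. Neutrophil markers summed to 982 and 1189 UMIs in the marrow pair against 13 in wild type and 1 in the lymph node, where S100a8 and S100a9 were at 0.

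Myeloma cells of the lymph node and the marrow differed in 3 of the 9 genes. Irf1 was 4.37-fold higher and Socs1 7.27-fold higher in lymph node than in VQ marrow, Ifngr1 was 3.27-fold lower, and the other 6 genes did not pass the test. Against wild-type plasma cells, VQ marrow was 4.90-fold lower for Irf1, 2.46-fold lower for Ifnar2 and 2.28-fold lower for Jak2. The lymph node differed from wild type in Ifnar2, which was 2.43-fold lower, and Irf1 there did not pass the test. Under the alternative analyses described below, the Ifngr1 call between lymph node and marrow held in 4 of 11. The Jak2 call held in 4 of 12.

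These calls come from edgeR's quasi-likelihood test on summed UMIs with a Benjamini-Hochberg adjusted p under 0.05. Between lymph node and VQ marrow 2 of the 9 genes were called higher and 1 lower, where 1.86% and 1.27% of 8286 tested genes were called. Between VQ marrow and wild type 0 were called higher and 3 lower, against 17.1% and 12.8% of all genes. Between lymph node and wild type 0 were higher and 1 lower, against 16.4% and 12.2%. The lower calls are 33.3% of the 9 genes in VQ marrow, above the share over all genes, and 11.1% in lymph node, near it. Socs1 and Ifngr1 passed the low-count filter (the CPM of 10 UMIs at the median library total, in any library) only through the lymph node and the marrow, where each was high, so the count for lymph node against marrow was selected in part. With no filter, edgeR called Irf1 and Socs1 higher and Ifngr1 lower there, where 1.17% and 0.871% of 12852 genes were called. At an unadjusted p under 0.05, 3, 3 and 2 of the 9 passed in the comparisons of lymph node with VQ marrow, VQ marrow with wild type, and lymph node with wild type. DESeq2 gave an adjusted p for 5 of the 9 (Ifnar1, Ifnar2, Jak1, Jak2 and Irf1) and called 0 of them in each. With library totals as the only scaling, the median log2 difference of all genes from wild type rose by 0.36 in VQ marrow and 0.33 in lymph node, and the share of called genes that were higher rose from 57.3% to 75.1% and from 57.3% to 73.9%. Values near 0 against wild type should be read relative to that shift. The 3 comparisons share libraries, so their calls are not independent of each other.

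**Figure D1:**
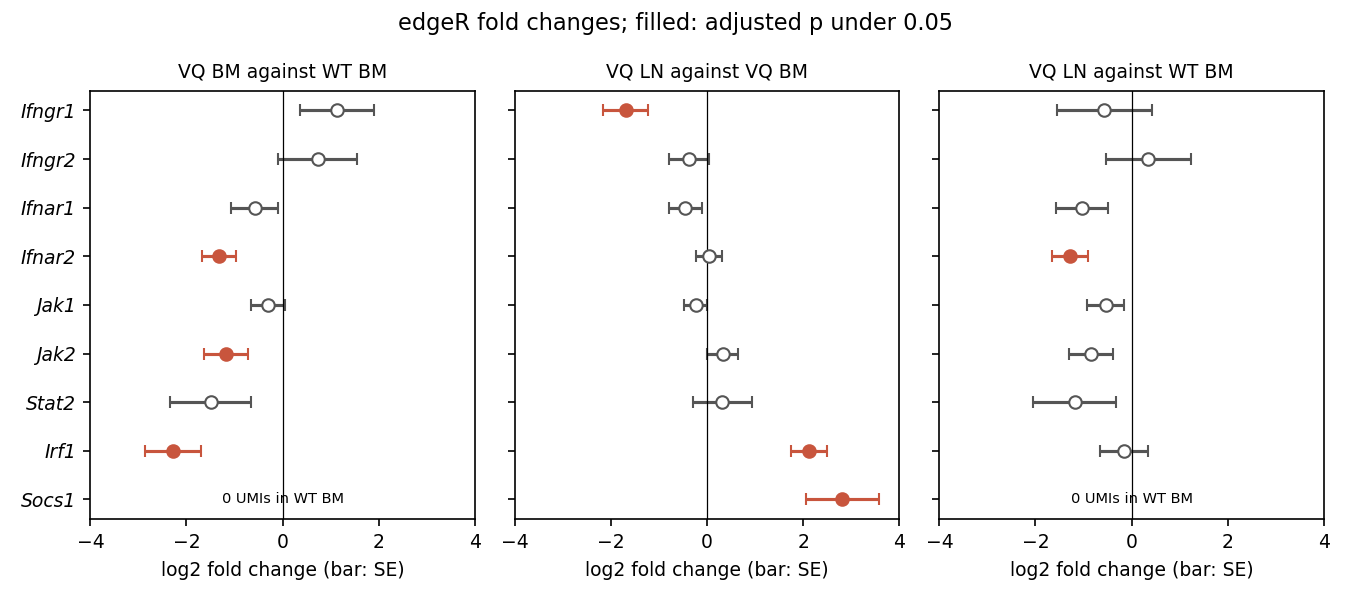
Log2 fold changes of the 9 genes in the 3 comparisons, with horizontal bars for the SE computed back from the edgeR test and filled points for adjusted p under 0.05. Irf1 and Socs1 lie to the right and Ifngr1 to the left between lymph node (LN) and VQ bone marrow (BM), and the called points against wild type (WT) all lie to the left. Socs1 has no point against wild type, where its count was 0.

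Ifngr1 encodes the ligand-binding chain of the interferon gamma receptor (chromosome 10, 19591949 to 19610229, plus strand, GRCm38). It had 3 UMIs in wild type, 43 and 19 in the marrow pair and 10 in the lymph node. As TMM-scaled CPM (a gene's UMIs relative to its library's UMI total, after edgeR's scaling between libraries) the levels were 17.6, then 38.2 and 40.3, then 11.9. Both marrow libraries were above the lymph node, with counting intervals of 27.6 to 51.4 and 24.2 to 62.9 against 5.69 to 21.8. The log2 difference of lymph node from marrow was -1.70 (SE 0.47, edgeR adjusted p = 0.0147, and 0.0151 with no filter on low counts).

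The marrow Ifngr1 signal was unevenly placed. Of the 43 UMIs in replicate 1, 20 lay in the 17 cells that held UMIs of at least 2 markers of another cell type, and of the 19 in replicate 2, 8 lay in 11 such cells. The lymph node had 1 such cell, with no Ifngr1 UMI. Without the scaling step, the CPM of those cells was 459 and 624 in the marrow pair, against 23.0 and 25.5 in all other marrow cells and 12.5 in the other lymph node cells. Without the cells holding such markers the log2 difference was -0.89 (edgeR adjusted p = 0.616). In an alternative added after seeing the data, limited to cells with at least 2 plasma cell markers besides Jchain, it was -0.72 (edgeR adjusted p = 0.720). Altogether 7 of 11 alternatives lost the Ifngr1 call, among them all cells, a Jchain threshold of 2% and leaving out cells under 1000 UMIs, and in each the lymph node remained the lower. T cell markers stood at 28.7 and 29.3 unscaled CPM in the marrow pair and 8.71 in the lymph node, 3 of 5 measured markers having a UMI in each and Cd8a none. Neutrophil markers stood at 940 and 2675 against 1.24, and macrophage and monocyte markers at 202 and 153 against 94.6. Cd68 alone gave that lymph node value, and it also made up 144 of 211 and 49 of 68 such UMIs in the marrow pair. The NK cell, dendritic cell and B cell markers ran the other way, higher in the lymph node than in both marrow libraries. In each VQ library most UMIs of these lists came from Gzma, Bst2 and Cd79b, respectively.

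In wild type, Ifngr1 lay mainly outside the Jchain-high cells. Of its 24 UMIs in the library, 21 were in the 57 cells with Jchain under 5%, an unscaled CPM of 154 against 14.7 in the 106 cells used. Ifngr2 had the same placement, with 14 of 17 UMIs in those 57 cells. With all cells of every library counted, the log2 difference of VQ marrow from wild type turned from 1.13 to -0.94 for Ifngr1 and from 0.73 to -0.87 for Ifngr2, and no setting called either. The direction of both receptor genes against wild type therefore depends on which cells are counted.

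**Figure D2:**
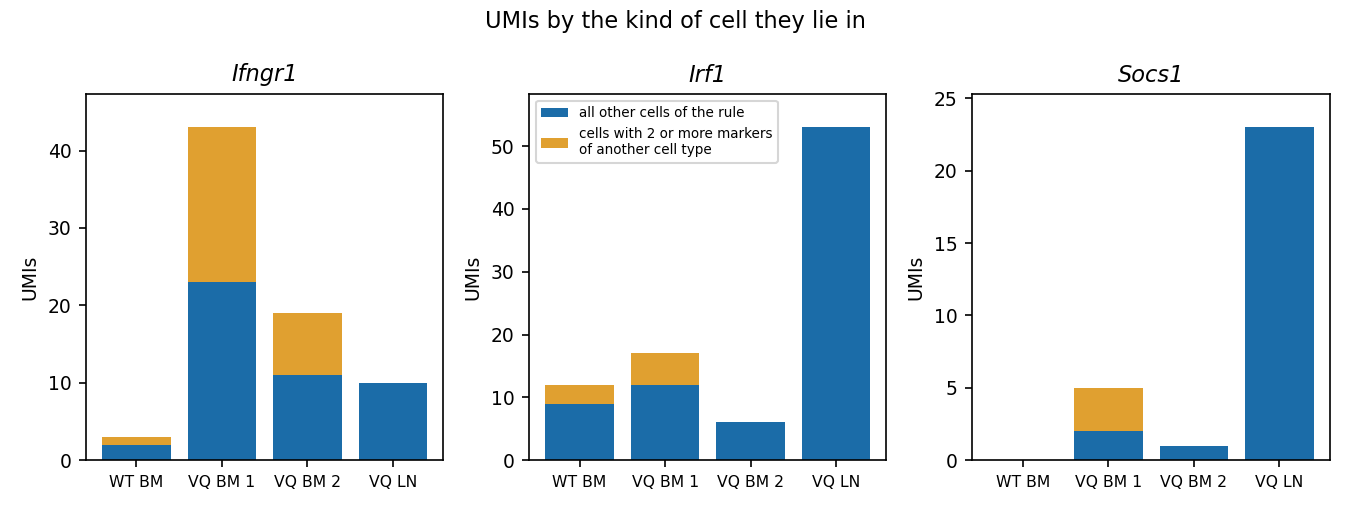
UMIs of Ifngr1, Irf1 and Socs1 in each library, split into cells with UMIs of at least 2 markers of another cell type (upper, yellow) and all other cells of the rule (lower, blue). The yellow part holds 20 of 43 and 8 of 19 Ifngr1 UMIs in the marrow pair, and none of the 53 Irf1 or 23 Socs1 UMIs of the lymph node.

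Ifngr2, the signalling chain of the same receptor, lies on chromosome 16 (91547072 to 91565623, plus strand). It had 3, 34, 13 and 19 UMIs in wild type, the marrow pair and the lymph node, or 17.6, 30.2, 27.6 and 22.6 CPM. All 4 counting intervals overlapped and no comparison passed the test. Between lymph node and marrow its fold was 0.767 with a counting interval of 0.425 to 1.33. None of its marrow UMIs lay in the mixed-marker cells, unlike those of Ifngr1.

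Ifnar1 and Ifnar2 encode the paired chains of the type I interferon receptor. They sit beside Ifngr2 on the plus strand of chromosome 16 (Ifnar2 at 91372783 to 91405589, Ifnar1 at 91485238 to 91507441), the 3 genes spanning 193 kb. Ifnar2 had 27 UMIs in wild type, 79 and 24 in the marrow pair and 55 in the lymph node, or 159, 70.1, 50.9 and 65.3 CPM. The wild-type library was above all 3 VQ libraries, and its counting interval of 105 to 231 CPM did not overlap theirs. The log2 difference from wild type was -1.32 in VQ marrow (SE 0.35, edgeR adjusted p = 0.00140) and -1.28 in lymph node (SE 0.38, edgeR adjusted p = 0.00455). Of 12 alternatives, 11 kept the marrow call and 9 the lymph node call. DESeq2 kept neither, and leaving out the mixed-marker cells lost the lymph node call. Lymph node and marrow stood at a fold of 1.01 (counting interval 0.716 to 1.42). The annotation places Gm21970 over Ifnar2 on the same strand, so reads of the 2 may have been divided between them in a way the tables do not show.

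Ifnar1 had 12 UMIs in wild type, 47 and 27 in the marrow pair and 29 in the lymph node. The levels were 70.6, 41.7, 57.2 and 34.4 CPM, highest in wild type and lowest in the lymph node, with overlapping counting intervals. The log2 difference from wild type was -0.58 in marrow (SE 0.48) and -1.03 in lymph node (SE 0.54), and neither passed edgeR's test (adjusted p = 0.379 and 0.139). At this depth the neighbouring receptor genes of chromosome 16 cannot be ranked against each other in how they differ from wild type.

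Jak1, the kinase shared by both receptors, had 20, 115, 39 and 68 UMIs in wild type, the marrow pair and the lymph node. Its levels were 118, 102, 82.7 and 80.7 CPM, and all 4 counting intervals overlapped. The lymph node stood at 0.838 of the marrow (counting interval 0.620 to 1.12), the narrowest of the 9 genes in that comparison by the ratio of its ends. The sign of its difference from wild type was not fixed: the log2 value of VQ marrow was -0.30, and it was 0.059 with library totals as the only scaling. With all cells counted Jak1 was called lower than wild type in VQ marrow (log2 -0.81, edgeR adjusted p = 0.0334). Jak1 (chromosome 4, 101152367 to 101265282, minus strand) overlaps Raver2 on the opposite strand, and whether the counting used strand is not given in the sources used here.

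Jak2, the kinase held by Ifngr2, lies on chromosome 19 (29251828 to 29313080, plus strand). It had 16 UMIs in wild type, 45 and 21 in the marrow pair and 44 in the lymph node, or 94.1, 40.0, 44.5 and 52.2 CPM. Wild type was highest, and its counting interval of 53.8 to 153 overlapped those of marrow replicate 2 and the lymph node but not that of replicate 1. VQ marrow was lower by a log2 difference of -1.18 (SE 0.45, edgeR adjusted p = 0.0332). The call was lost in 8 of 12 alternatives, among them library totals as the only scaling (log2 -0.81, edgeR adjusted p = 0.144), no filter on low counts, all cells, and leaving out the mixed-marker cells (log2 -1.13, edgeR adjusted p = 0.123). The lymph node's log2 difference from wild type was -0.85 (SE 0.47) and did not pass.

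Stat2, a factor of the type I response, lies on chromosome 10 (128270559 to 128292849, plus strand). It had few UMIs in every library, with 6 in wild type, 7 and 12 in the marrow pair and 13 in the lymph node. Its levels were 35.3, 6.21, 25.4 and 15.4 CPM. The 2 marrow libraries differed from each other 4.09-fold (counting interval 1.49 to 12.3), the sole gene of the 9 whose interval for that ratio left out 1. No comparison passed edgeR's test. The log2 difference of lymph node from marrow was 0.32 with both marrow libraries, -0.71 without replicate 1 and 1.29 without replicate 2, so its direction rests on which marrow library is used.

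**Figure D3:**
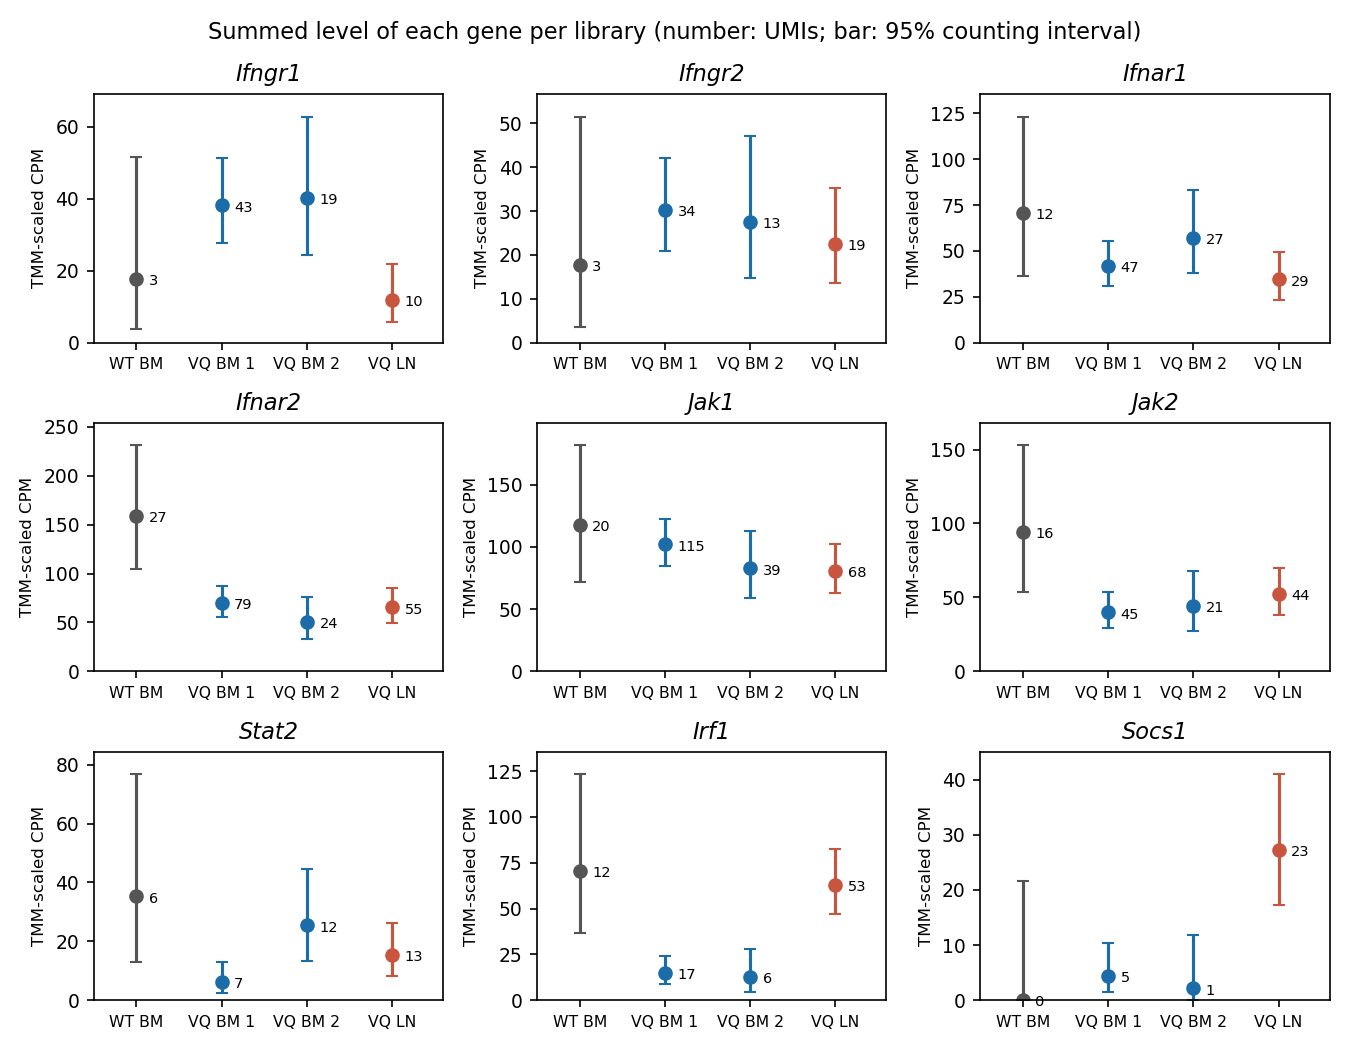
Level of each of the 9 genes in TMM-scaled CPM for the wild-type, VQ bone marrow and lymph node libraries, with 95% counting intervals and the UMI count beside each point. Irf1 is low in both marrow libraries (15.1 and 12.7) and higher in wild type (70.6) and lymph node (62.9), and Socs1 is highest in the lymph node (27.3).

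Irf1 is a transcription factor that interferon gamma induces and that drives antigen presentation genes (chromosome 11, 53770014 to 53778374, plus strand). It had 12 UMIs in wild type, 17 and 6 in the marrow pair and 53 in the lymph node. The levels were 70.6, 15.1, 12.7 and 62.9 CPM. The marrow libraries were the lowest, and their counting intervals of 8.79 to 24.2 and 4.67 to 27.7 did not overlap those of wild type (36.5 to 123) or lymph node (47.1 to 82.3). The lymph node exceeded the marrow by a log2 difference of 2.12 (SE 0.38, edgeR adjusted p = 3.49e-06), or 4.37-fold with a counting interval of 2.63 to 7.47. VQ marrow was under wild type by a log2 difference of -2.28 (SE 0.58, edgeR adjusted p = 0.000713). Lymph node and wild type differed by -0.17 (SE 0.50, edgeR adjusted p = 0.835), or by 0.16 with library totals as the only scaling, and the counting interval of their fold, 0.470 to 1.83, leaves room for a difference either way.

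The Irf1 pattern did not rest on the mixed-marker cells, which held 5 of 17 and 0 of 6 marrow UMIs and none of the lymph node's. Without them the lymph node difference was 2.40 (edgeR adjusted p = 0.0113), and in cells with at least 2 plasma cell markers besides Jchain it was 2.47 (edgeR adjusted p = 5.97e-08). DESeq2 gave 2.17, close to edgeR's size, but did not call it (adjusted p = 1.00). A protein-coding gene, Gm17334, overlaps Irf1 on the opposite strand, so its reads would be counted apart only where strand was used.

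Socs1 encodes the inhibitor that binds Jak kinases and interferon receptors (chromosome 16, 10782240 to 10785536, minus strand). It had 0 UMIs in wild type, 5 and 1 in the marrow pair and 23 in the lymph node, or 0, 4.44, 2.12 and 27.3 CPM. The lymph node's interval of 17.3 to 41.0 CPM lay above both marrow intervals, whose upper ends were 10.4 and 11.8. The log2 difference of lymph node from marrow was 2.81 (SE 0.76), with a counting interval of 2.88 to 21.8 on the fold of 7.27. The gene entered the filtered test (edgeR adjusted p = 0.0113) only through its level in the lymph node, and with no filter edgeR's adjusted p was 0.00148. Of the 5 UMIs in marrow replicate 1, 3 lay in mixed-marker cells. Without those cells the difference was larger, at 3.68, but missed the threshold (edgeR adjusted p = 0.107). With at least 2 plasma cell markers required it was 3.66 (edgeR adjusted p = 0.00579).

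Against wild type, no direction can be given for Socs1. The shallow wild-type library allows up to 3 counts where 0 were seen, or 17.6 CPM, which lies within the lymph node's interval. edgeR's adjusted p for lymph node against wild type was 0.0585, and 0.0311 with no filter. VQ marrow, with 6 UMIs, stood under that floor.

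The promoters of Irf1 and Socs1 are shown because these are the genes that were higher in the lymph node. Each is the 250 bases before a RefSeq start in GRCm38.p6, written 5′ to 3′ on the gene's strand. Capitals mark matches to the GAS letters in Irf1 (TTC, any 3 bases, GAA) and to the ISRE core letters in Socs1 (GAAA, any 2 bases, GAAA), searched on both strands.
Irf1, chr11:53769764-53770013, plus strand: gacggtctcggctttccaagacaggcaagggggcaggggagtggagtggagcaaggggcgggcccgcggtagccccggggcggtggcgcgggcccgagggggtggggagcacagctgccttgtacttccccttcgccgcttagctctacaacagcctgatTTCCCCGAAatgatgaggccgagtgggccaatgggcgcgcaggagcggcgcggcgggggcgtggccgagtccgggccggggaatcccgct
Socs1, chr16:10785537-10785786, minus strand: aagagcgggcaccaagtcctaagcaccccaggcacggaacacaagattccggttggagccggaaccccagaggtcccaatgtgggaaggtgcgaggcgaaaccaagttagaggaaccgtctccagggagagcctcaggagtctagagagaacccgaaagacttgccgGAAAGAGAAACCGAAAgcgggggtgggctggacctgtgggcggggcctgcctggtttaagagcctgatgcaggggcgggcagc

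The Irf1 window held 1 GAS match, TTCCCCGAA, at -90 to -82 from the start. The Socs1 window held 2 ISRE core matches that overlap, GAAAGAGAAA at -83 to -74 and GAAACCGAAA at -77 to -68. The same letters were found in 7.02% (GAS) and 2.98% (ISRE core) of 32851 RefSeq windows of this length. Ifnar2 also held a GAS match (TTCCTGGAA, -214 to -206) and Stat2 an ISRE core match on the opposite strand (GAAACTGAAA, -222 to -213), although neither gene was called between lymph node and marrow. The windows of Ifngr1, Ifngr2, Ifnar1, Jak1, Jak2 and a further Irf1 start held neither. A match describes the letters and not binding.

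The rest of the pathway was read from fixed lists of ligands, receptors, factors and targets. All 9 interferon ligand genes listed, among them Ifng and Ifnb1, had 0 UMIs in the 687 cells, which allows a share of cells with a UMI of up to 0.437% for each gene. The counts of called members of each list stand against the shares over all genes: 1.86% higher and 1.27% lower between lymph node and marrow, 17.1% and 12.8% between VQ marrow and wild type, and 16.4% and 12.2% between lymph node and wild type. Of 4 other receptor and kinase genes 0 were called between lymph node and marrow (1, Jak3, higher with no filter), and Tyk2 and Il10rb were lower in VQ marrow than in wild type. Tyk2, the kinase of Ifnar1, had 19 UMIs in wild type, 13 and 6 in the marrow pair and 19 in the lymph node. Its log2 difference from wild type was -3.21 (SE 0.54) in marrow and -2.30 (SE 0.53) in lymph node. Il10rb, a chain of the interleukin 10 and lambda interferon receptors, differed by -1.61 (SE 0.32) and -1.21 (SE 0.33), and edgeR called all 4 of these differences. Each Tyk2 call was lost in 1 of 11 alternatives. Of 12 alternatives, 2 lost the marrow Il10rb call and 4 the lymph node call, leaving out the mixed-marker cells among the 4.

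Of 4 other STATs reported here, Stat3 was higher in lymph node than in marrow and 0 were lower. Stat3, the main factor of interleukin 6 signals, had 26 UMIs in wild type, 51 and 22 in the marrow pair and 86 in the lymph node, a log2 difference of 1.16 (SE 0.26) over marrow. Without the mixed-marker cells the difference was larger, at 1.26, but missed the threshold (edgeR adjusted p = 0.0557). In VQ marrow 2 of the 4 were under wild type and 0 above (12.8% and 17.1% of all genes): Stat3 by -1.74 (SE 0.37) and Stat5b, a factor of cytokine and growth hormone signals, by -1.79 (SE 0.64) on the log2 scale. In lymph node against wild type Stat5b was called, at -1.71 (SE 0.68), a call that 6 of 10 alternatives lost, and Stat3 was not.

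Of 7 other IRFs tested, Irf8 was higher in lymph node than in marrow (log2 1.76, SE 0.53) and 0 were lower. This call was lost in 7 of 12 alternatives. Among them was leaving out the mixed-marker cells, where the difference was larger, at 2.12 (edgeR adjusted p = 0.147). Irf8, a factor of B cells and myeloid cells, nevertheless had 33 UMIs in wild type against 7 and 5 in marrow and 22 in lymph node, and was lower than wild type in both (log2 -4.65, SE 0.48, and -2.88, SE 0.44). Irf4, which plasma cells require, was lower than wild type in marrow (-0.86, SE 0.20) and lymph node (-1.26, SE 0.23). Of 12 alternatives, 4 lost the marrow Irf4 call and 2 the lymph node call. Irf9, the third subunit of the ISRE-binding complex, was lower in marrow (-1.48, SE 0.59), and Irf2, a repressor, in lymph node (-0.94, SE 0.35), calls that 6 of 10 and 7 of 12 alternatives lost.

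Of 16 other inhibitors listed, 11 were tested, and edgeR called 0 between lymph node and marrow, as it did for all 16 with no filter. DESeq2 gave an adjusted p for 9 and called 0. Among the 5 not tested, Usp18 had 7 UMIs in the lymph node and 0 in both marrow libraries and in wild type. The 11 tested had a median log2 difference of -0.04, and whether Socs1 differs from them was not tested. Socs2, an inhibitor best known from growth hormone signalling, was higher than wild type in marrow (log2 2.33, SE 0.28) and lymph node (2.42, SE 0.29). The phosphatase gene Ptpn6 was lower in both (-2.41, SE 0.29, and -3.30, SE 0.36), as was Pias1, which encodes an inhibitor of STAT factors (-1.63, SE 0.40, and -2.43, SE 0.47).

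In both lists of interferon targets, the members called between lymph node and marrow were higher in the lymph node. Of 28 tested interferon gamma targets, 20 were higher than in marrow and 0 lower (1.86% and 1.27% of all genes), with a median log2 difference of 1.21 against -0.02 over all genes. Of the 20, 6 passed the low-count filter only through the lymph node. With no filter 19 of the 31 listed gamma targets with a UMI were higher and 0 lower, against 1.17% and 0.871% of all genes. The leading genes were the GTPases Tgtp1 (5.80, SE 0.82), Gbp2 (4.45, SE 0.30) and Iigp1 (4.15, SE 0.62), which act against pathogens within cells. These 3 are among the 6, and edgeR called them with no filter too. Of 17 tested type I targets, 5 were higher and 0 lower, with a median of 0.77, and with no filter 6 of 37 were higher. These were led by Zbp1, a nucleic acid sensor (1.64, SE 0.32), Trim30a (1.38, SE 0.35) and Bst2, which tethers budding viruses (1.19, SE 0.18). Without the mixed-marker cells, 15 of 29 gamma targets and 2 of 18 type I targets were called, and DESeq2 called 5 of 21 and 0 of 9.

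Against wild type, members of the gamma list were called in both directions. In VQ marrow 3 of 28 gamma targets were higher (Gbp3, Gbp7 and Wars), where 17.1% of all genes were, and 10 lower, where 12.8% were, among them B2m (log2 -3.59, SE 0.10), Tapbp (-2.65, SE 0.21) and H2-K1 (-2.13, SE 0.13), all parts of class I antigen presentation. Of 17 type I targets, 6 were lower there and 0 higher (12.8% and 17.1% of all genes), led by Ddx58 (-3.18, SE 0.44), Ifi27l2a (-3.10, SE 0.29) and Phf11b (-2.77, SE 0.59). In lymph node 11 gamma targets were above wild type and 4 below, and 1 type I target was above and 5 below, where 16.4% of all genes were above and 12.2% below. Of the 11, 4 (Gbp2, Gbp5, Iigp1 and Tgtp1) passed the low-count filter only through the lymph node, where they were high. With no filter 11 of 31 gamma targets were above and 4 below (11.0% and 7.57% of all genes), and in VQ marrow 3 were above and 10 below (11.5% and 7.85%). Gbp5, Iigp1 and Tgtp1 had 0 UMIs in wild type and 80, 40 and 38 in lymph node, at least 5.38-fold, 2.69-fold and 2.56-fold higher against the floor of 3 counts. Without the mixed-marker cells Iigp1 and Tgtp1 missed the threshold (edgeR adjusted p = 0.0588 and 0.0569). All gamma targets called above wild type but Wars were GTPases, while the GTPases Gbp9, Irgm2 and Tgtp2 did not pass and Gbp6 was not tested. B2m (-2.37, SE 0.13) and Tapbp (-2.12, SE 0.23) were under wild type.

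**Figure D4:**
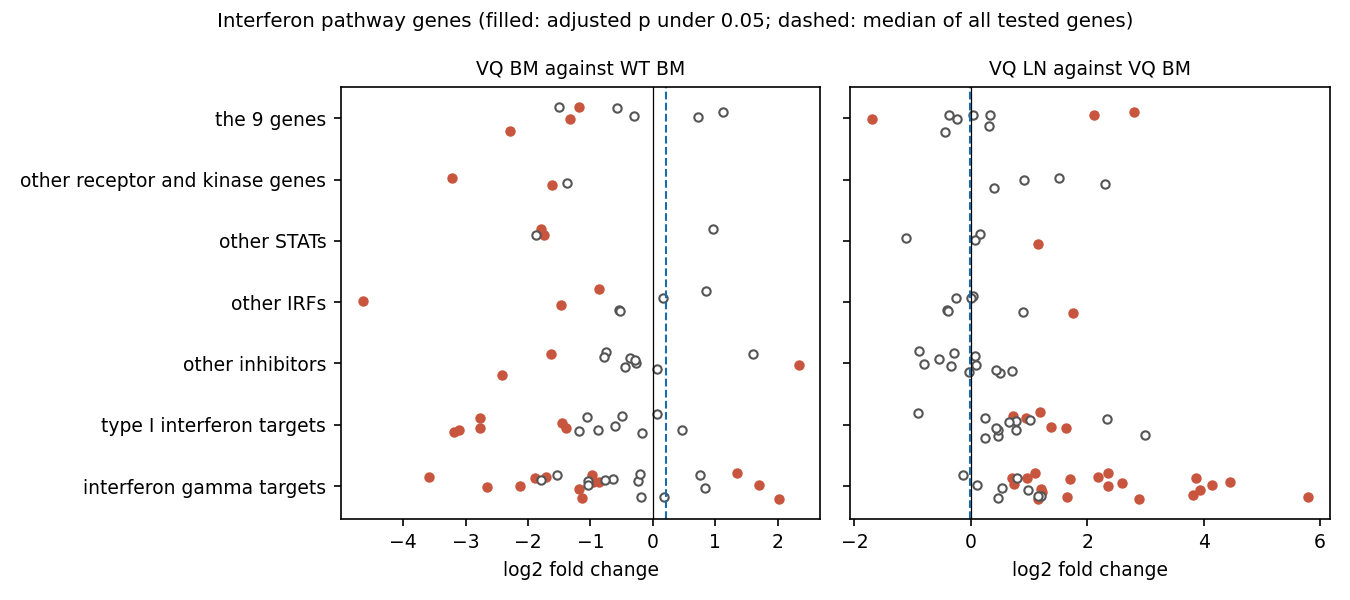
Log2 fold changes of the 9 genes and the other pathway genes tested, by list, for VQ bone marrow against wild type (left) and lymph node against VQ bone marrow (right), with filled points for edgeR adjusted p under 0.05 and a dashed line at the median of all genes. Of the 28 interferon gamma targets, 20 are filled to the right of 0 in the right panel. Genes with 0 UMIs in a group are left out.

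Per cell, every one of the 9 genes was sparse. At full depth Irf1 had a UMI in 32 of 185 lymph node cells (17.3%, exact Clopper-Pearson 95% interval 12.1 to 23.5), in 14 of 226 and 6 of 170 marrow cells (6.19% and 3.53%) and in 10 of 106 wild-type cells (9.43%). The 53 lymph node UMIs were spread over those 32 cells, with at most 6 in a cell. Socs1 had a UMI in 16 lymph node cells (8.65%, 5.02 to 13.7), in 3 and 1 marrow cells and in no wild-type cell, where 0 of 106 allows up to 2.83%. Ifngr1 had a UMI in 12.4% and 7.06% of marrow cells, 3.78% of lymph node cells and 2.83% of wild-type cells. No cell type in these libraries is known to lack these broadly expressed genes, so a share from free RNA could not be set beside these values.

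Depth differed between libraries, so each cell was also thinned to 1000 UMIs, leaving out 19, 22, 32 and 14 shallower cells in wild type, the marrow pair and the lymph node. The Irf1 share was then 5.85% in lymph node (10 of 171 cells), 3.43% and 0.725% in the marrow pair and 4.60% in wild type, with overlapping intervals. Its thinned UMIs numbered 10 in lymph node and 9 and 1 in marrow, so replicate 1 was close to the lymph node when every cell counted alike, and too few UMIs were left for edgeR's filter to keep the gene. The marrow replicate 1 cells with an Irf1 UMI after thinning had a median depth of 1562 UMIs, against 4981 for the others. Socs1 was left in 5 lymph node cells, 0 and 1 marrow cells and 0 wild-type cells. At this thinned depth a difference in the share of cells was not detectable for either gene.

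Irf1 and Socs1 were seen together in 5 lymph node cells at full depth, where the product of their shares gives 2.77 cells, and in 0 cells of the other 3 libraries. Deeper cells show both genes more easily: median depth was 5040 UMIs in lymph node cells with an Irf1 UMI and 3724 in those without. The other pairs behaved in the same way, Jak1 with Jak2 in 19 lymph node cells against a product of 9.40 and Ifnar1 with Ifnar2 in 8 against 5.84. These counts are a description, and their part due to depth was not tested.

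Target levels were also read in lymph node cells with and without a UMI of Irf1 or Socs1. Few cells showed either gene after thinning, so a cell without a UMI cannot be taken to lack it. After thinning, the 14 interferon-inducible GTPases of the gamma list, grouped after their values were seen, had a UMI in 81.9% of lymph node cells (75.3 to 87.3), 39.2% and 35.5% of marrow cells and 20.7% of wild-type cells. Among the 14 are the 6 gamma targets that passed the low-count filter only through the lymph node. Over all 33 gamma targets, wild type had the highest mean, 31.5 UMIs, against 7.51 and 6.99 in marrow and 15.8 in lymph node. Before thinning, B2m had the most UMIs of the 33 in every library: 4654 in wild type, 2475 and 1117 in marrow and 4473 in lymph node. Means over the 33 therefore follow B2m more than the list as a whole. Lymph node cells without an Irf1 UMI held a mean of 2.64 GTPase UMIs and the 10 cells with one held 4.20. In marrow the GTPase means were 0.544 and 0.551 over all cells. Among the 5 lymph node cells with a Socs1 UMI the GTPase mean was 5.20, against 2.66 in the rest. Over all 33 gamma targets the lymph node means were 16.3 with and 15.7 without an Irf1 UMI, and 17.8 and 15.7 for Socs1. For the type I targets they were 1.70 and 1.66, and 2.40 and 1.64. These means are over few cells of a single library and carry no test.

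The genes whose pattern was most like each of the 9 were found among 6611 genes with a mean of at least 20 CPM, by the Euclidean distance between values of log2(CPM + 1) over the 4 libraries, centred on each gene's mean. For Irf1, Cd28, a costimulatory receptor gene, lay at a distance of 0.40, with 265 CPM in wild type, 59.5 and 55.1 in marrow and 180 in lymph node. Nearest to Socs1 was Gbp7, an interferon-induced GTPase gene, at 0.77, followed by Slc16a3, a lactate exporter gene, at 1.08. Socs1 entered with 0 CPM in wild type, under the floor there, and with 5 and 1 UMIs in marrow, so its neighbours are uncertain. For Ifngr1 they were Klf2, a factor of lymphocyte quiescence and trafficking, at 0.26, and Dnajb12 at 0.31. The remaining 6 genes had neighbours at 0.02 to 0.52, among them Gpx1 for Ifngr2, Ufc1 for Ifnar1, Fam120b for Ifnar2, Fnta for Jak1, Ormdl3 for Jak2 and Zfp26 for Stat2. With 4 libraries many genes share a pattern, so the distances order genes and test nothing.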

How the data were processed

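Single cells were isolated on the Bio-Rad ddSEQ instrument and made into 3′ whole-transcriptome libraries, per the labels' protocols. The authors deposited unscaled UMI counts, a row for each cell and a column for each gene. The genome build mm10 is named in the submitters' processing notes, and the aligner is not given in the sources used here.

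Counts of the cells of the rule were summed per library and all genes were fitted at once in edgeR 4.0.16 (R 4.3.3): TMM scaling, filterByExpr, 3 group means over 4 libraries and the quasi-likelihood test, with Benjamini-Hochberg adjustment over 8286 genes. Its 1 residual degree of freedom comes from the 2 VQ marrow libraries, whose spread was taken to hold for wild type and lymph node too (common biological coefficient of variation 0.0928, prior degrees of freedom infinite). The SE is the log2 difference over the root of the F statistic. Intervals are exact 95% counting intervals and, with the floor of 3 counts, cover counting error only. The steps were tested on simulated data. No doublet caller was run, and cells with UMIs of at least 2 markers of 1 other cell type were left out in an alternative.

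Alternatives were DESeq2 1.42.0, other scaling, filter, spread, Jchain thresholds, cell choices, thinning and leaving out either marrow replicate. The members and pathway lists were chosen with earlier results of these data known. One gene of the pathway lists is not reported here and is left out of the list counts and the search for like patterns. All 9 genes are described, with the called STATs and IRFs and the 3 largest called changes of each other list. Coordinates come from GENCODE vM21 (GRCm38) and promoters from RefSeq (GRCm38.p6), where all 9 genes matched.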

Additional observations from a re-analysis of the deposited data

How the results depend on the processing

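The 2 groups with 1 library each have no spread of their own, and most of the 9 genes have under 60 UMIs in a library, so depth limits every comparison. No paired analysis was possible because only the VQ marrow group has 2 replicates. Leaving out marrow replicate 1 or 2 gave values with no test: between lymph node and marrow the log2 difference ran from 2.05 to 2.28 for Irf1 and from 2.57 to 3.54 for Socs1.

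Counts of called genes, 2478 for VQ marrow against wild type, 259 for lymph node against marrow and 2375 for lymph node against wild type, fell to 423, 17 and 353 with DESeq2, 1644, 82 and 1490 with a preset coefficient of variation of 0.2, 1448, 61 and 1352 without the cells holding markers of another type, and 592, 14 and 520 after thinning to 1000 UMIs. Between lymph node and marrow they were also 163 at a Jchain threshold of 2% and 107 with all cells. The estimated prior degrees of freedom, infinite in the reported fit, were 8.50 without the mixed-marker cells and 8.10 after thinning, which left 4322 genes to test. They were 23.0 at a Jchain threshold of 2% and 10.5 with all cells, and stayed infinite with at least 2 plasma cell markers required. The cause of the changed counts was not tested for any setting.

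Of the 9 genes, the 3 lower in VQ marrow than in wild type became 0 with DESeq2 and 1 (Ifnar2) after thinning, which left Irf1 untested. With all cells Jak1 was called lower and Jak2 was not. Between lymph node and marrow, the 2 higher became 0 with DESeq2, which tested Irf1 but not Socs1, or thinning, which tested neither, and 1 (Irf1) with all cells or without the mixed-marker cells. The 1 lower, Ifngr1, was not tested by DESeq2 (count 0) and became 0 with the preset coefficient, a Jchain threshold of 2%, all cells, no mixed-marker cells, cells of at least 1000 UMIs, thinning, or cells with at least 2 plasma cell markers. Between lymph node and wild type, 1 became higher (Socs1) with library totals, no filter or the preset coefficient. The 1 lower there, Ifnar2, became 0 with DESeq2, the preset coefficient or no mixed-marker cells, and 3 (Ifnar2, Ifngr1 and Jak1) with all cells.

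Signs turned in these cases, none called. For VQ marrow against wild type, Ifngr1 was -0.94 and Ifngr2 -0.87 with all cells, and Jak1 was 0.059 with library totals, 0.16 without the mixed-marker cells, 0.22 after thinning and 0.16 with at least 2 plasma cell markers, the last chosen after seeing the data. For lymph node against marrow, thinning gave -0.019 for Ifnar2 and -0.83 for Jak2, Stat2 was -0.71 without replicate 1 and Ifnar2 -0.10 without replicate 2. For lymph node against wild type, Ifngr2 was -1.22 with all cells, Jak1 0.084 after thinning and Irf1 0.16 with library totals. Of 180 shares of cells recomputed, 144 stayed within the interval of the share after thinning to 1000 UMIs and 36 moved out of it. The settings included no thinning and thinning to 500 UMIs, which change depth and with it the shares.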
